A study of Mus musculus with 20 samples.

Results

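Messenger RNA of frontal cortex microglia was compared between 5 mice labelled hC4A/- and 4 mice labelled WT, so 9 of the 20 libraries of the series were used, chosen by their sample titles. Each library came from 1 mouse at postnatal day 40, from which 1000 cells with high CD11b and low CD45 were sorted. The label hC4A/- names human C4A, and the series is described as humanized transgenic mice holding human C4A and C4B. The labels do not state which sequences drive the human gene, what the minus allele is, whether mouse C4 was removed, the strain, the sex or the number of founder lines. The 5 libraries labelled C4-/-, also from mice at postnatal day 40, served as a second comparison, and the 4 libraries labelled hC4B/- and the 2 labelled hC4A/A only to place a few levels.

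The complement protein C4 acts in the classical pathway. Cleaved C4 binds to surfaces and helps to form the enzyme that activates C3, and fragments of C3 mark material for uptake by phagocytes. Microglia, the resident macrophages of the brain, make C1q, which starts the pathway, and carry complement receptor 3, an integrin of the subunits Itgam and Itgb2. In mice this route takes part in the removal of synapses during development. The mouse gene C4b encodes C4, and C4a is its neighbouring near-identical copy.

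The 9 libraries held 1129302 to 2735181 counts over genes (median 1808031 in hC4A/- and 1719700 in WT), and 11348 to 18753 genes were detected in each. Satellite-like genes took 13.3% to 58.5% of these counts. No difference between the groups in 9 library measures, among them depth, genes detected and read classes, passed its test (smallest two-sided exact permutation p = 0.619). Levels are given as CPM, gene counts relative to a library's TMM-scaled total. Ddx3y, a Y-linked gene, was detected in hC4A/- 3 and 4 and in WT 3 and 4, at 434 and 446 CPM and at 482 and 583 CPM, and was at 0 in the other 5 libraries, where Xist held 58.9 to 121 CPM. Library names recorded with the files carry a letter prefix for the WT mice only, so genotype and the mice's naming series cannot be told apart.

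C4b, the mouse counterpart of the human gene in the labels, was higher in libraries labelled hC4A/- than in those labelled WT. C4b (ENSMUSG00000073418, GRCm38 chr17:34728380-34743882, minus strand) had 18, 5, 5, 23 and 45 counts in the 5 libraries labelled hC4A/-, against 0, 0, 2 and 0 counts in the 4 labelled WT. These are 13.1, 2.86, 4.20, 14.7 and 12.1 CPM in hC4A/- and 0, 0, 1.24 and 0 CPM in WT, and the groups did not overlap. The pooled ratio was 40.5, with a 95% interval of 10.9 to 339 that covers counting error only. The mean of log2(CPM + 1) was 2.88 higher in hC4A/-, with a two-sided exact permutation p of 0.0159, the smallest that the 126 splits of 9 libraries allow. C4b was too low in count for the fit across genes. C4a (ENSMUSG00000015451, chr17:34809092-34823464) had 1 count in all in hC4A/- and 2 counts in WT. On a scale set over all 20 libraries, C4b had a median of 12.3 CPM in hC4A/-, 30.3 in C4-/- and 0 in WT. It had 59.2, 6.47, 102, 3.72 and 30.3 CPM in C4-/- 1 to 5, so C4-/- 2 and 4 lay below the hC4A/- median. It had 3.80, 274, 288 and 2.90 CPM in hC4B/- 1 to 4, and 6.70 and 348 CPM in hC4A/A 1 and 2. The highest values are those of hC4B/- 2 and 3 and hC4A/A 2. With C4-/- 3, the highest of its label, these are the 4 libraries of the series with over 27000 detected genes. All 54838 gene IDs are mouse IDs, so human C4A has no row, and the files do not tell from which part of C4b, or from which species' C4, the reads came. The levels of C4b thus do not match what the names WT and C4-/- would lead one to look for. Genotypes below are those of the library labels, and every direction rests on them.

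**Figure D1:**
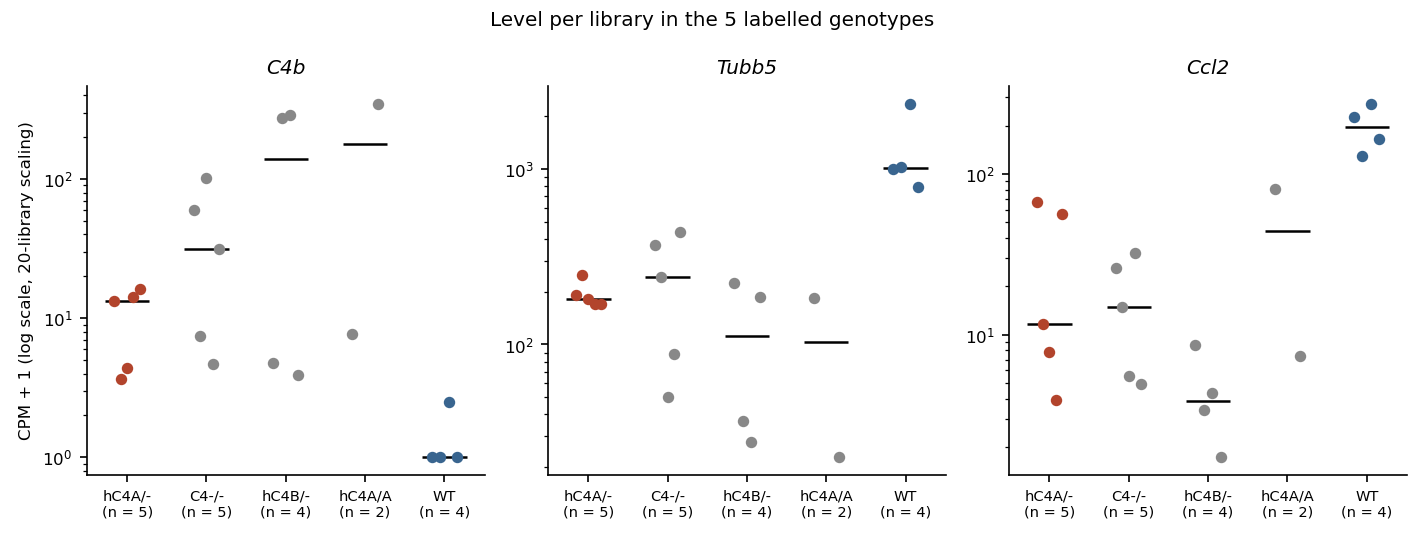
C4b, Tubb5 and Ccl2 in CPM + 1 on a log scale in each of the 20 libraries, scaled together, with hC4A/- in red, WT in blue, the other genotypes in grey and bars at the group medians. C4b medians were 12.3 CPM in hC4A/- and 0 in WT, and the WT libraries hold the highest Tubb5 and Ccl2 values of all 5 labels.

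In the edgeR fit, 1 gene changed: Tubb5, a beta-tubulin that forms microtubules, fell in libraries labelled hC4A/-. Tubb5 (ENSMUSG00000001525, GRCm38 chr17:35833921-35838306, minus strand) had 204, 268, 222, 186 and 136 CPM in the hC4A/- libraries, against 1039, 1273, 1921 and 806 CPM in the WT libraries. The lowest WT library lay well above the highest hC4A/- library. The means were 203 ± 48.4 CPM in hC4A/- (SD, n = 5) and 1260 ± 481 CPM in WT (n = 4), 6.21 times as much in WT. The log2 fold change was -2.63 ± 0.31 (SE; edgeR quasi-likelihood test, Benjamini-Hochberg adjusted p = 0.00471). It was the 1 gene called of 6670 tested, 0.015%, with 0 higher and 1 lower. At an unadjusted p under 0.05 there were 320 genes, 4.8%, of which 157 (2.35%) were above 0 and 163 (2.44%) below 0. The next smallest adjusted p was 0.208. Over all genes tested the log2 fold change had a median of 0.004, with 50.3% above 0 and 49.7% below 0. Mice of 1 label varied widely, with a dispersion of 0.63 and so a coefficient of variation of 0.794.

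Tubb5 kept its direction under every other setting tried, but 2 of them did not call it, among them a fit over all 20 libraries (log2 fold change -2.75, adjusted p = 0.405). DESeq2 called 41 genes and limma-voom 1 on the same 6670 genes. Against libraries labelled C4-/-, which share the hC4A/- libraries with the comparison above, the log2 fold change of Tubb5 was -0.11 ± 0.51 (unadjusted p = 0.826). On the 20-library scale its median was 180.0 CPM in hC4A/-, 242 in C4-/- and 1012 in WT. It had 224, 35.8, 26.9 and 185 CPM in hC4B/- 1 to 4, and 183 and 21.8 CPM in hC4A/A 1 and 2. The lowest of these are again the libraries with over 27000 detected genes. The WT libraries, at 782 to 2342 CPM, lay above all 16 others on that scale, whose highest was 437 CPM.

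Tubb5 lies 1.1 Mb from C4b. Within 10 Mb of C4b, 137 genes were tested and 1 was called, and 5 had an unadjusted p under 0.05 (3.65%, against 4.8% of all genes). Libraries of the groups did not overlap for 3 of the 137, 2.19%, against 1.83% of all genes. These 3 were Tubb5, BC003965 and Ndufa7, and the median log2 fold change over the 137 genes was 0.02. BC003965 and Ndufa7 did overlap on the scale set over all libraries of the series. In the rest of chromosome 17, 178 genes were tested and 0 called. Among the MHC class III neighbours of C4b, 11 of 42 were tested, with 5 above 0, 6 below 0 and a median of -0.05.

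**Figure D2:**
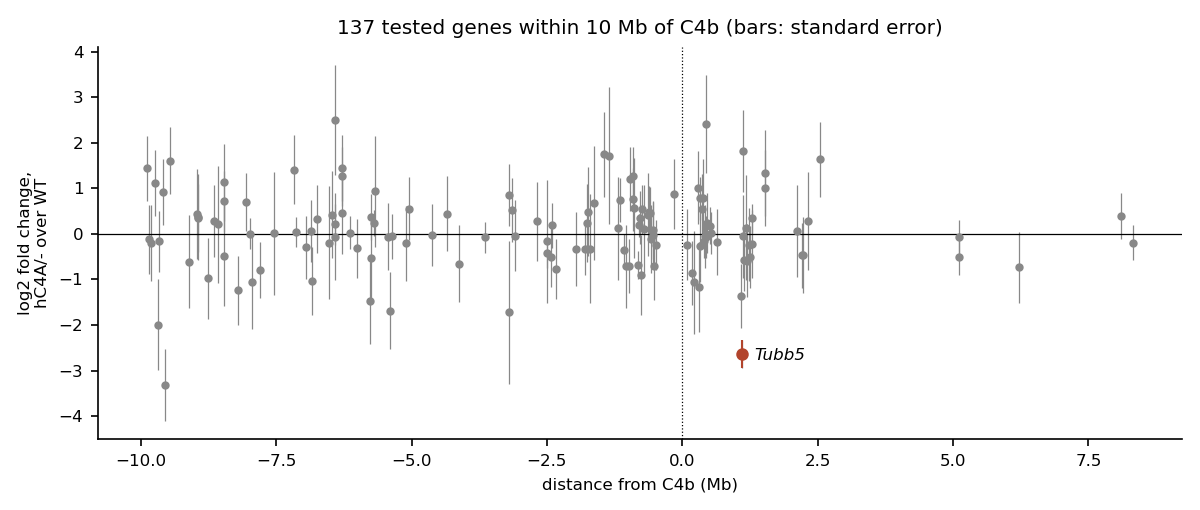
Log2 fold change of hC4A/- over WT for the 137 tested genes against the distance of each gene from C4b in Mb, with bars for the standard error. Tubb5, in red at 1.1 Mb and -2.63, stands below the genes beside it.

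Because Tubb5 was the called gene, its promoter window (300 bases, GRCm38 chr17:35838252-35838551, minus strand, RefSeq) is shown with matches to the CCAAT box in capitals. The letters CCAAT, searched on both strands, matched 2 times, the first at position -198 from the start, and neither TGACGT, the core of the cyclic AMP response element, nor TATAAA matched. CCAAT matches occur in 42.3% of the promoters of tested genes, so a match is common.
Tubb5: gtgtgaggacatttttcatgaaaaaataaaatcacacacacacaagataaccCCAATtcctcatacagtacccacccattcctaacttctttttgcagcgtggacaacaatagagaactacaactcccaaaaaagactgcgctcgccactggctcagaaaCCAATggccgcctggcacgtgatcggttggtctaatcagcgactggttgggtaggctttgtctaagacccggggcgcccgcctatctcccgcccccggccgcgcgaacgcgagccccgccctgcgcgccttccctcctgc

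No other tubulin was called. Tubulin genes resemble each other, and reads that map to several places were left out of the counts. Of 19 tubulin genes 4 were tested, with 2 above 0 and 2 below 0. Tuba1a, an alpha-tubulin, averaged 9.41 ± 3.80 CPM in hC4A/- (SD, n = 5) and 7.59 ± 4.90 CPM in WT (n = 4), with a log2 fold change of 0.34 ± 0.71 (SE). Tuba1b stood at -0.58 ± 0.76 and Tubb2a at 0.28 ± 0.97, the last changing sign without hC4A/- 5 and without WT 3. Tubb3, the neuronal beta-tubulin, had 2 counts in hC4A/- 2 and none in the other 8 libraries.

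Libraries of the groups did not overlap for 122 genes (1.83%), 66 with every hC4A/- library above every WT library (0.99%) and 56 with every one below (0.84%). Among these, the 8 of smallest p in each direction with a mean of at least 20 CPM are described, 16 in all, of which Tubb5 alone passed the test. Adjusted p-values of the other 15 ran from 0.208 to 0.776. Overlap was judged on the scale of the 9 libraries and depends on the scaling. On the 20-library scale Ivns1abp did overlap, with hC4A/- from 841 CPM and WT up to 984 CPM. So did BC003965, with hC4A/- up to 15.8 CPM and WT from 13.3 CPM. Srsf1, Zfp873, Msn, Ccl2, Cdc42bpa, Ubac2 and Ivns1abp also overlap annotated genes on the opposite strand. Hinfp and also Cdc42bpa overlap a gene on their own strand. Part of the counts of these genes may be shared or lost as ambiguous.

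Of the 8 above WT, Srsf1, a splicing factor that binds exonic enhancers, had 19, 30.3, 158, 62.5 and 110 CPM in hC4A/-, against 8.59, 1.75, 2.49 and 3.72 CPM in WT, a log2 fold change of 4.13 ± 0.84 (adjusted p = 0.309). The hC4A/- libraries spread widely, yet all lay above WT. Srsf2, a related splicing factor chosen after its values were seen, averaged 2238 ± 604 CPM in hC4A/- and 1141 ± 442 CPM in WT, and its groups overlapped. Med8, a subunit of the Mediator complex that links activators to RNA polymerase II, had 224, 170, 124, 451 and 301 CPM in hC4A/-, against 54.0, 77.7, 8.71 and 7.45 CPM in WT (log2 fold change 2.79 ± 0.70). Emsy, a chromatin-bound regulator that interacts with BRCA2 in human cells, averaged 183 ± 63 CPM in hC4A/- and 52.0 ± 25.2 CPM in WT. The zinc finger gene Zfp873 averaged 42.2 ± 10.6 CPM in hC4A/- and 2.46 ± 1.65 CPM in WT, and it was at 0 in WT 2. Its log2 fold change was 4.01 ± 0.86 against WT and 2.92 ± 0.73 against C4-/- (unadjusted p = 0.000644 in the second). On the scale set over all libraries of the series, Zfp873 had 33.0 to 46.4 CPM in hC4A/-. It had 12.7, 3.58, 4.04 and 56.5 CPM in hC4B/- 1 to 4, and 7.02 and 2.565 CPM in hC4A/A 1 and 2. So hC4B/- 4 lay above every hC4A/- library, and both hC4A/A libraries lay below them all. Of these, hC4B/- 2 and 3 and hC4A/A 2 are libraries with over 27000 detected genes.

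Also above WT was a pair of antisense transcripts. Their reads cannot be told by strand from those of the genes they overlap, since the libraries do not separate the strands. Gm26873 (chr17:17389943-17411993), which overlaps Riok2 and Lix1, had 52.5, 65.8, 41.1, 101 and 115 CPM in hC4A/-, against 1.38, 0.873, 1.24 and 8.69 CPM in WT (log2 fold change 4.54 ± 0.84, adjusted p = 0.208). WT 4 stood apart from the other WT libraries, and without it Gm26873 passed at a log2 fold change of 5.91. Gt(ROSA)26Sor, the transcript of the Rosa26 locus, overlaps Thumpd3 and averaged 54.0 ± 28.1 CPM in hC4A/- and 5.50 ± 3.98 CPM in WT. Ubac2, a membrane protein of the endoplasmic reticulum, averaged 201 ± 33.1 CPM in hC4A/- and 82.7 ± 29.6 CPM in WT, and Ivns1abp, a protein that binds an influenza virus protein, 1397 ± 363 CPM in hC4A/- and 733 ± 134 CPM in WT. Cd101, an immunoglobulin family membrane protein of myeloid cells, chosen after its values were seen, had 83 counts over the hC4A/- libraries and 1 count in WT. The pooled ratio was 70.0, with an interval of 12.2 to 2797 that covers counting error only and not the spread between mice. In the fit its log2 fold change was 5.76 and it was not called, and 1 of 15 other settings called it.

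Of the 8 below WT, Msn encodes moesin, which ties actin filaments to the plasma membrane, and had 32.1, 85.2, 94.8, 30 and 32.9 CPM in hC4A/-, against 208, 271, 281 and 141 CPM in WT (log2 fold change -2.04 ± 0.46, adjusted p = 0.482). Cdc42bpa, a kinase that acts on the cytoskeleton below the GTPase Cdc42, had 3.65 to 19.1 CPM in hC4A/- and 41.0 to 122 CPM in WT. Ywhab, an adaptor of the 14-3-3 family, had 21.1 to 69.3 CPM in hC4A/- and 112 to 265 CPM in WT. Sf3a1, a splicing factor of the U2 particle, had 1.46, 2.29, 0.839, 1.28 and 5.40 CPM in hC4A/-, against 96.9, 93.4, 23 and 8.28 CPM in WT (log2 fold change -4.50 ± 0.92, adjusted p = 0.309). The WT libraries themselves fell apart here, with WT 1 and 2 far above WT 4. Hinfp, a transcription factor of histone H4 genes, averaged 26.8 ± 12.8 CPM in hC4A/- and 109 ± 31.8 CPM in WT, and BC003965 averaged 7.06 ± 4.29 CPM in hC4A/- and 72.4 ± 58.0 CPM in WT.

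**Figure D3:**
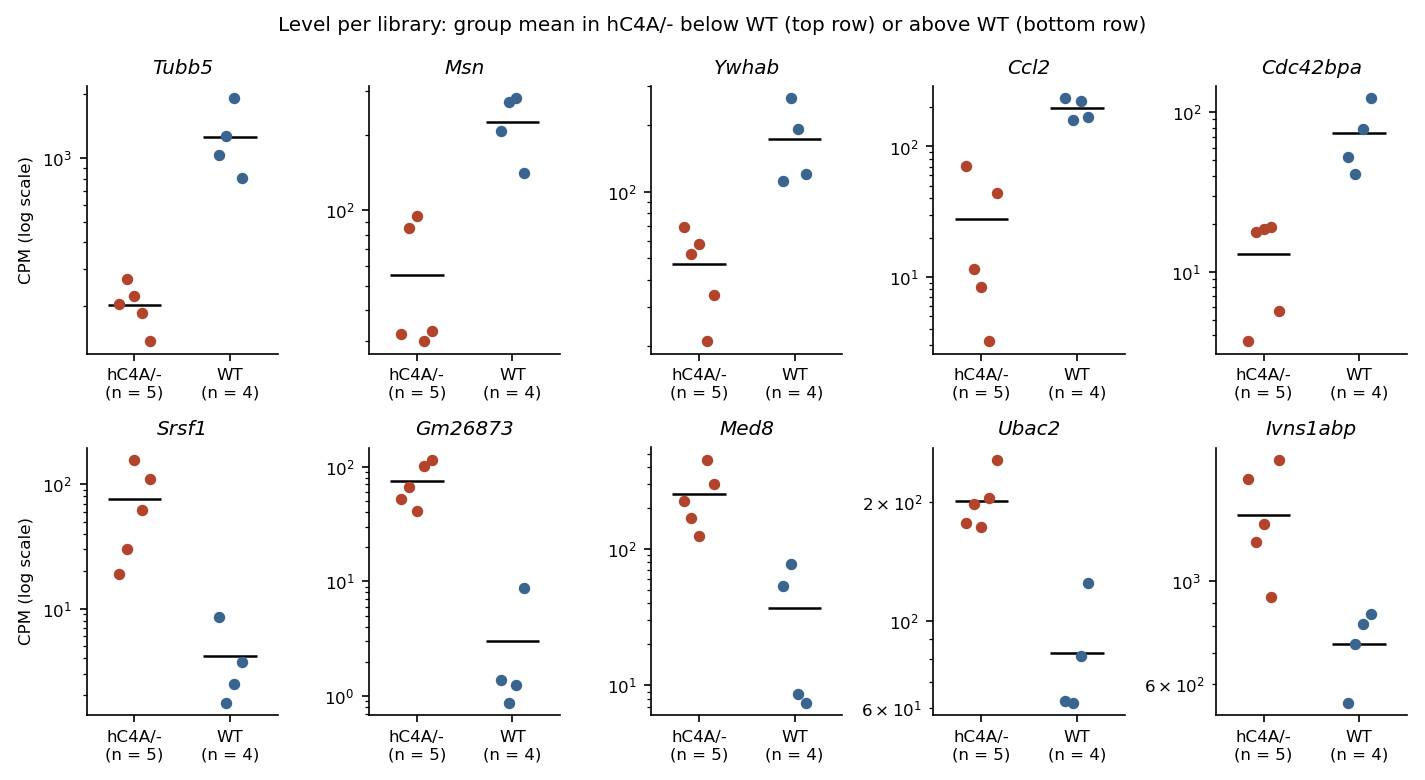
CPM on a log scale in each hC4A/- library (red, n = 5) and each WT library (blue, n = 4) for 5 genes with group means below WT (top) and 5 above WT (bottom), with bars at the means. The genes were chosen from those whose libraries do not overlap between the groups on the scale of these 9 libraries. Tubb5, at 136 to 268 CPM in hC4A/- and 806 to 1921 CPM in WT, is the one gene that passed the test.

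Ccl2, a chemokine that attracts monocytes, had 70.7, 11.4, 8.39, 3.19 and 44.2 CPM in hC4A/-, against 235, 160, 224 and 169 CPM in WT. None of the hC4A/- libraries reached the lowest WT library, and hC4A/- 1 came nearest. The log2 fold change was -2.83 ± 0.71 (adjusted p = 0.590), and 0.75 ± 0.89 against C4-/-. On the 20-library scale the medians were 10.6 CPM in hC4A/-, 13.9 in C4-/- and 195 in WT. Of 26 chemokines and cytokines 12 were tested, 5 above 0 and 7 below 0, with a median of -0.06. Il1a, an inflammatory cytokine, pointed the other way at 2.42 ± 1.16, with 79.5, 26.9, 110, 0.638 and 5.13 CPM in hC4A/- and 1.24 to 15.1 CPM in WT, and the groups overlapped. Nfkbid, an inhibitor of NF-kB, had 0.839 to 17 CPM in hC4A/- and 29.4 to 53.5 CPM in WT (log2 fold change -2.86 ± 0.92). On the 20-library scale Nfkbid had 1.06 to 13.9 CPM in C4-/- and 24.6 to 65.2 CPM in WT. It was the 1 gene of 13 tested in the NF-kB list whose groups did not overlap, against 1.83% of all genes tested, and the list split into 7 above 0 and 6 below 0. Of 12 tested Toll-like receptors and co-receptors, Tlr13, which senses bacterial ribosomal RNA in mice, was the 1 without overlap (1.83% of all genes), at 5.40 to 13.4 CPM in hC4A/- and 15.7 to 27.1 CPM in WT.

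Immediate early genes, which cells switch on soon after a stimulus or on isolation from tissue, lay mostly below WT, without a gene past the test. Of 38 in the list 19 were tested, 4 above 0 and 15 below 0, with a median of -0.82 beside 0.004 over all genes, and 0 of them passed the adjusted test (0.015% of all genes). The median ran from -1.10 to -0.60 as single libraries were left out. An unadjusted p under 0.05 was reached by 3 of the 19, Fos, Klf4 and Rgs1, against 4.8% of all genes. Fos, the AP-1 subunit, had 2.19, 14.9, 17.6, 3.19 and 7.55 CPM in hC4A/-, against 10.3, 131, 31.1 and 54.6 CPM in WT, and WT 1 fell within the hC4A/- range. Its log2 fold change was -2.63 ± 0.85 (adjusted p = 0.939), and -1.83 without WT 2. Klf4, a zinc finger transcription factor, had 0, 0, 0.839, 0 and 9.71 CPM in hC4A/-, against 31.3, 16.6, 20.5 and 32.3 CPM in WT. Most of its hC4A/- counts came from hC4A/- 5. Gadd45g, a stress sensor, had 0 to 14.3 CPM in hC4A/- and 16.6 to 30.2 CPM in WT. Jun, the AP-1 partner of Fos, named after its values were seen, had 4.86 to 42.1 CPM in hC4A/- and 47.2 to 75.2 CPM in WT. Klf4, Gadd45g and Jun were the 3 of the 19 tested members without overlap, all below WT, against 0.84% of all genes that were separated in that direction. Rgs1, which damps G protein signalling, averaged 13.5 ± 11.6 CPM in hC4A/- and 44.8 ± 29.8 CPM in WT, with overlap. Against C4-/-, Fos stood at -0.56 ± 0.79 and Rgs1 at 0.57 ± 0.77. On the 20-library scale the Gadd45g medians were 4.25 CPM in hC4A/-, 1.59 in C4-/- and 24.4 in WT. Those of Klf4 were 0, 7.97 and 27.5 CPM, in the same order. Low levels of these genes beside WT were thus not particular to hC4A/-.

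The promoter window of Fos (300 bases, GRCm38 chr12:85473640-85473939, plus strand, RefSeq) is shown as that of the best known member, with the cyclic AMP response element core TGACGT, at position -66 from the start, and the core TATAAA in capitals. TGACGT, on either strand, was found in 4 of the 15 tested members with a RefSeq promoter, 26.7%, beside 15% of all tested genes with one. TATAAA was found in 4 of the 15 (26.7%, beside 8.52%) and CCAAT in 9 (60%, beside 42.3%). The window of Klf4, searched in the same way, had 0 matches. A match is a description of the letters only.
Fos: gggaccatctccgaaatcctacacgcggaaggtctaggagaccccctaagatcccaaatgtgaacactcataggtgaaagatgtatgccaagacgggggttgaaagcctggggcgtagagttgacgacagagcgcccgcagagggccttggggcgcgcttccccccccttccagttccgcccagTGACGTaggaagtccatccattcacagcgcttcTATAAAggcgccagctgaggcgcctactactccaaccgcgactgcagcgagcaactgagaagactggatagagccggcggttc

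Complement genes of microglia showed no called change. C1qa, C1qb and C1qc, the subunits of C1q, were the 3 complement components tested of 18. C1qa averaged 812 ± 321 CPM in hC4A/- (SD, n = 5) and 707 ± 308 CPM in WT (n = 4). C1qb averaged 1139 ± 389 CPM in hC4A/- and 926 ± 267 CPM in WT, and C1qc 781 ± 309 CPM in hC4A/- and 679 ± 360 CPM in WT. The log2 fold changes were 0.20 ± 0.36, 0.30 ± 0.30 and 0.20 ± 0.37, within the spread between mice, and those of C1qa and C1qc changed sign when 1 library was left out. C3 had 2 counts over the hC4A/- libraries and 5 in WT, and Cfb and Cfd had none in any of the 9.

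All 8 tested complement receptors and regulators had a log2 fold change below 0, against 49.7% of all genes, with 0 called. Their median was -0.52 and ran from -0.55 to -0.14 over the other settings. C5ar1, the receptor of C5a, had 120, 182, 337, 213 and 160 CPM in hC4A/-, against 242, 365, 571 and 206 CPM in WT (log2 fold change -0.77 ± 0.38, unadjusted p = 0.0635). C3ar1, the receptor of C3a, averaged 414 ± 78.3 CPM in hC4A/- and 618 ± 214 CPM in WT. For the subunits of complement receptor 3, Itgam averaged 224 ± 85.7 CPM in hC4A/- and 333 ± 117 CPM in WT, and Itgb2 53.7 ± 34.1 CPM in hC4A/- and 83.9 ± 25.9 CPM in WT. Every one of these 4 overlapped between the groups. The summed level of the list ran from 1596 to 2073 CPM in hC4A/- and from 2093 to 2871 CPM in WT, without overlap but with a narrow gap. Against C4-/-, C5ar1 stood at 0.16 ± 0.50 and C3ar1 at -0.25 ± 0.52, and Itgam at 0.33 ± 0.47 and Itgb2 at -0.06 ± 0.66. Of 19 tested pruning receptors and signals, 5 were above 0 and 14 below 0, with 0 called. Their median was -0.48 and ran from -0.51 to -0.16 over the other settings. Sirpa, the receptor of the signal CD47 that restrains uptake, averaged 1442 ± 169 CPM in hC4A/- and 2006 ± 445 CPM in WT.

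Homeostatic genes, which mark the labelled cell type, were high in all 9 libraries. Their summed level was 27780 to 33250 CPM in hC4A/- and 30330 to 36330 CPM in WT, and all 40 were tested, 15 above 0 and 25 below 0, with a median of -0.17 and 0 called. P2ry12, the nucleotide receptor that guides processes, averaged 516 ± 120 CPM in hC4A/- and 586 ± 154 CPM in WT. Tmem119 averaged 291 ± 85.6 CPM in hC4A/- and 291 ± 128 CPM in WT, a log2 fold change of -0.003 ± 0.35 whose sign turned under 5 settings. Csf1r, the survival receptor of microglia, stood at -0.49 ± 0.26. Cx3cr1, the receptor of the neuronal chemokine fractalkine, had 1008, 915, 811, 624 and 752 CPM in hC4A/-, against 1046, 1265, 1763 and 891 CPM in WT (log2 fold change -0.59 ± 0.26, unadjusted p = 0.0374). WT 4 fell within the hC4A/- range. Spi1, which encodes the lineage factor PU.1, averaged 108 ± 34.2 CPM in hC4A/- and 53.1 ± 25.3 CPM in WT. Sparc, a secreted matrix protein, averaged 573 ± 156 CPM in hC4A/- and 996 ± 393 CPM in WT. In all, 4 of the 40 had an unadjusted p under 0.05, against 4.8% of all genes.

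Among disease-associated and lysosomal genes 0 were called. Of 18 tested disease-associated genes 8 were above 0 and 10 below 0, and of 33 tested phagocytosis and lysosome genes 13 were above 0 and 20 below 0. Cd68, a lysosomal membrane protein, averaged 76.3 ± 23.6 CPM in hC4A/- and 173 ± 139 CPM in WT, with WT 3 at 364 CPM. Lamp1, another, averaged 22.3 ± 5.97 CPM in hC4A/- and 57.6 ± 56.8 CPM in WT, and its log2 fold change of -1.36 became -0.39 without WT 3. Tapbp, the chaperone that loads peptide on MHC class I, stood at -0.68 ± 0.30 in a list of 15 tested antigen presentation genes with 6 above 0 and 9 below 0. Type I interferon genes split into 6 above 0 and 7 below 0 of 13 tested.

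The genes of the actin cytoskeleton, tested in 23 of 26 members, divided into 8 above 0 and 15 below 0, with a median of -0.22 and 0 called. Wdr1, which helps cofilin to disassemble filaments, had 23.2 to 67.5 CPM in hC4A/- and 68.1 to 115 CPM in WT. It was the 1 of 23 tested without overlap, against 1.83% of all genes, but the gap was narrow. On the scale set over all libraries of the series Wdr1 did overlap, with hC4A/- up to 62.7 CPM and WT from 54.9 CPM. Actb, beta-actin, averaged 4336 ± 1291 CPM in hC4A/- and 6683 ± 2130 CPM in WT. The libraries overlapped for Actb, as they did for Arpc4, a subunit of the filament-branching complex (83.1 ± 17.2 CPM in hC4A/- and 150 ± 87.5 CPM in WT).

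Ribosomal protein genes leaned the other way, again without a call. Of 75 tested, 69 were above 0 and 6 below 0, against 50.3% above 0 over all genes, and their median log2 fold change was 0.42. It was 0.25 without WT 2 and 0.11 without hC4A/- 5, the library with the highest summed level. The summed level ran from 4129 to 8413 CPM in hC4A/- and from 3582 to 5215 CPM in WT. Rpl34 had 48.1, 75.5, 72.2, 103 and 87.2 CPM in hC4A/-, against 45.4, 32.3, 42.9 and 39.3 CPM in WT. It was the 1 of 75 tested without overlap, against 1.83% of all genes. Rpl34 did overlap on the scale set over all libraries of the series, with hC4A/- from 45.0 CPM and WT up to 52.3 CPM. Rpl5 averaged 327 ± 90.9 CPM in hC4A/- and 169 ± 62.4 CPM in WT. Both encode proteins of the large subunit.

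Nuclear and mitochondrial genes of respiration stood on opposite sides of 0. Of 61 tested nuclear genes 47 were above 0 and 14 below 0, with a median of 0.25 that ran from 0.078 to 0.46 as single libraries were left out. Ndufs3, a subunit of complex I, had 57.6 to 101 CPM in hC4A/- and 32.3 to 40.5 CPM in WT, and Ndufa7, another, 28.6 to 82.6 CPM in hC4A/- and 8.72 to 27.1 CPM in WT. Those 2 of 61 were the members without overlap, against 1.83% of all genes. Ndufa7 did overlap on the scale set over all libraries of the series, with hC4A/- from 26.55 CPM and WT up to 30.3 CPM. All 9 tested transcripts of the mitochondrial genome were below 0, with a median of -0.52 that ran from -0.69 to -0.21 as single libraries were left out. mt-Nd4 averaged 160 ± 45.3 CPM in hC4A/- and 254 ± 33.5 CPM in WT, the 1 of 9 without overlap, against 1.83% of all genes. It did overlap on the scale set over all libraries of the series, with hC4A/- up to 252.6 CPM and WT from 200 CPM. mt-Nd1 averaged 794 ± 197 CPM in hC4A/- and 1277 ± 379 CPM in WT with overlap. The summed level of the mitochondrial list also overlapped, at 2040 to 3476 CPM in hC4A/- and 3472 to 4022 CPM in WT. These transcripts come from 1 precursor on each strand, so their values are not independent. Of 27 tested proteasome genes 20 were above 0 and 7 below 0, with a median of 0.34 that ran from 0.16 to 0.50. Psmd12, of the regulatory particle, had 16.6 to 34.5 CPM in hC4A/- and 4.36 to 12.7 CPM in WT.

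Of 17 tested genes of the COPII coat and secretory entry, 1 lay above WT without overlap and 1 below, beside 0.99% and 0.84% of all genes. Sec24b, a cargo-binding subunit of the COPII coat of secretory vesicles, had 0, 1.72, 1.68, 1.28 and 1.89 CPM in hC4A/-, against 5.50, 24.4, 6.84 and 9.10 CPM in WT (log2 fold change -3.01 ± 0.83, adjusted p = 0.764). Its relative Sec24c averaged 3.04 ± 1.16 CPM in hC4A/- and 15.3 ± 14.1 CPM in WT with overlap, while Sec61g, of the channel into the endoplasmic reticulum, had 8.29 to 15.3 CPM in hC4A/- and 2.62 to 5.79 CPM in WT. The list as a whole split into 11 above 0 and 6 below 0. Of 15 tested glycolysis genes 7 were above 0 and 8 below 0. Hk3, the hexokinase of myeloid cells, stood at -1.83 ± 0.76 and Gpi1, which converts its product, at 1.58 ± 0.66. Of 15 tested lipid transport and cholesterol genes 3 were above 0 and 12 below 0, with a median of -0.28.

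**Figure D4:**
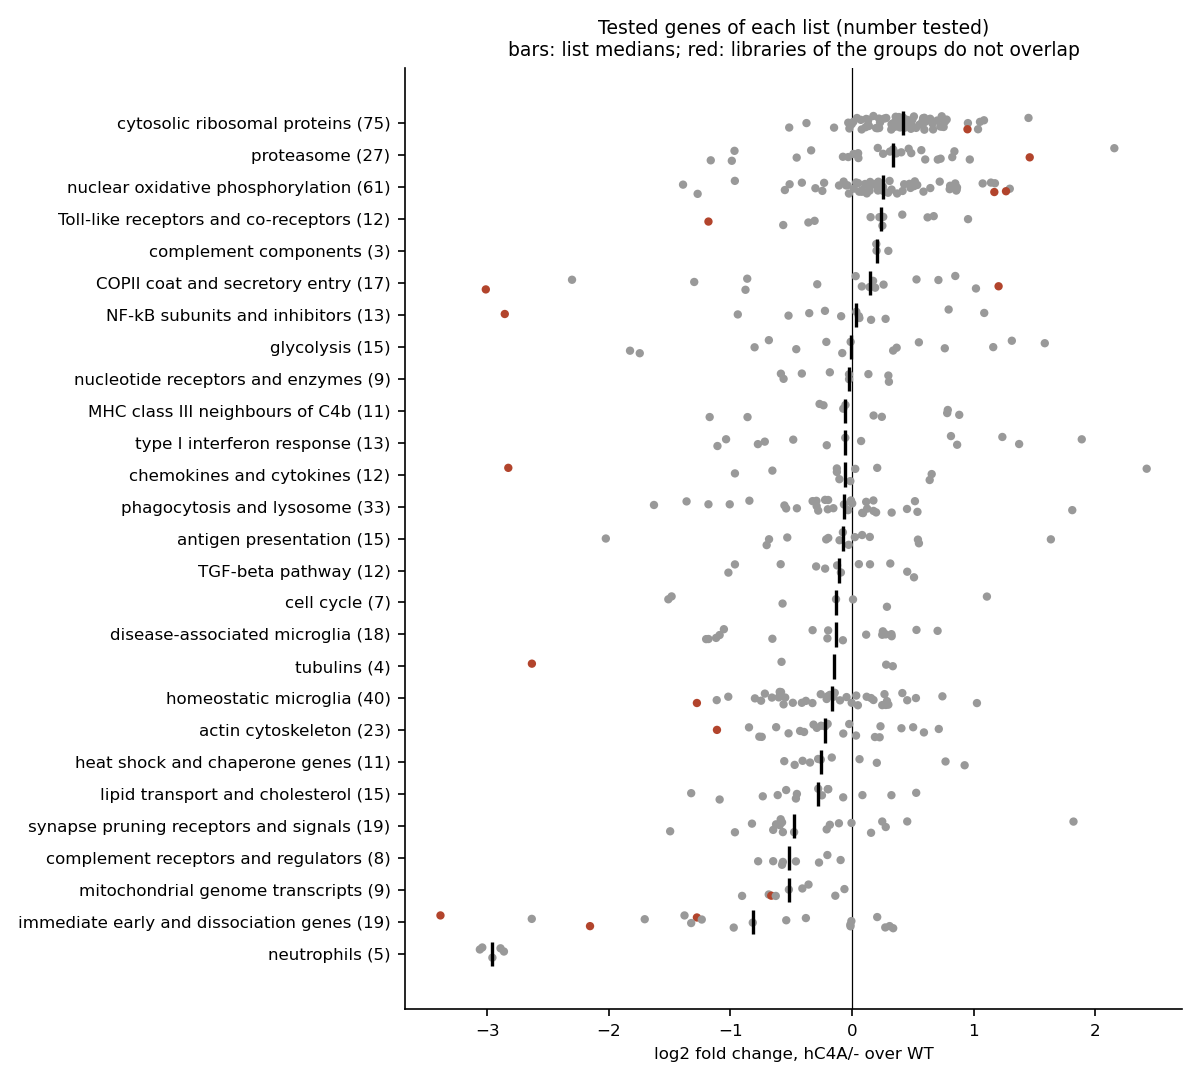
Log2 fold change of hC4A/- over WT for every tested gene of each list with at least 3 tested members, except the sex-linked transcripts. Lists are ordered by the median (black bar), with the number tested in brackets and red where the libraries of the groups do not overlap. Ribosomal protein genes sit at a median of 0.42, immediate early genes at -0.82 and neutrophil markers at -2.96, and Tubb5, the red point of the tubulins, is the only called gene.

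Of the markers of other cell types, those of neutrophils stood out in 1 WT library. Of 14 neutrophil markers 5 were tested, all 5 below 0 with a median of -2.96, and 0 were called. S100a9, a granulocyte calcium-binding protein, had 35.7, 0, 51.2, 51.7 and 0.270 CPM in hC4A/-, against 54.0, 722, 85.8 and 44.7 CPM in WT. The summed level of all 14 ran from 1.14 to 131 CPM in hC4A/- and from 104 to 1768 CPM in WT, with the highest in WT 2. Mpo was at 0 in all 9 libraries and Elane had 1 count. Without WT 2 the median was -1.10, and Ngp turned to 0.06. In bulk libraries, fewer cells of a type and less RNA per cell cannot be told apart, and the part of neutrophil RNA in the values of Ccl2, Fos and other myeloid genes was not tested.

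The remaining marker lists showed no called gene. Mrc1, of border macrophages, averaged 42.8 ± 38 CPM in hC4A/- and 12.2 ± 5.65 CPM in WT, with 108 CPM in hC4A/- 4. Stab1, of the same list, averaged 614 ± 194 CPM in hC4A/- and 701 ± 501 CPM in WT, its fold change turning sign without WT 3, and Folr2 was at 0 throughout. Pecam1, of endothelial cells, had 2.19 to 14.3 CPM in hC4A/- and 5.38 to 77.7 CPM in WT, while the summed level of the 12 endothelial markers was 43.8 to 158 CPM in hC4A/- and 62.1 to 181 CPM in WT. Snap25, of neurons, ranged from 1.14 to 90.6 CPM in hC4A/- and from 0.622 to 38.4 CPM in WT. Slc1a3, an astrocyte glutamate transporter, averaged 433 ± 132 CPM in hC4A/- and 400 ± 75.7 CPM in WT, while Gfap had 1 count in each of 2 libraries and S100b none.

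**Figure D5:**
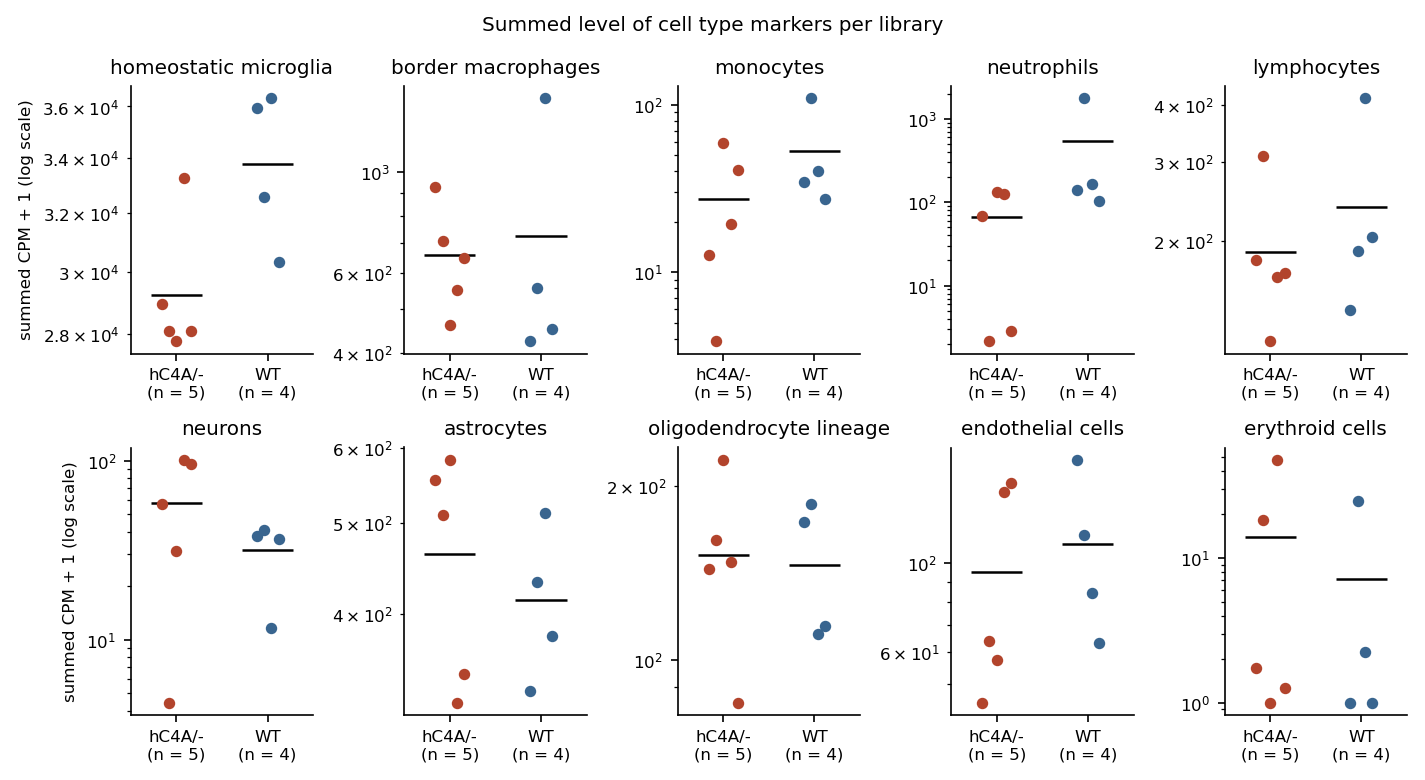
Summed CPM + 1 of the markers of microglia and of 9 other cell types on a log scale in each hC4A/- library (red, n = 5) and WT library (blue, n = 4), with bars at the means. Microglial markers sum to 27780 to 33250 CPM in hC4A/- and 30330 to 36330 CPM in WT, and the neutrophil sum reaches 1768 CPM in 1 WT library.

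Between hC4A/- and C4-/- libraries the edgeR test called 0 of 6369 genes (0.0%), with a smallest adjusted p of 0.155. An unadjusted p under 0.05 was reached by 405 genes, 6.36%, and DESeq2 called 38 genes and limma-voom 1. C4b was tested in this comparison, at a log2 fold change of -2.30 ± 0.91 (unadjusted p = 0.0201). Of the 16 genes described as separated between hC4A/- and WT, Zfp873 stood at 2.92 ± 0.73 (unadjusted p = 0.000644, adjusted p = 0.390) against C4-/- and Gt(ROSA)26Sor at 2.08 ± 0.79 (unadjusted p = 0.0160, adjusted p = 0.626). Gm26873 stood at 0.92 ± 0.68, Emsy at 0.49 ± 0.50, Ubac2 at 0.14 ± 0.53, Ivns1abp at 0.26 ± 0.52 and Hinfp at -0.23 ± 0.76, and Sf3a1 and BC003965 were not tested there. Msn stood at -1.08 ± 0.61 against C4-/-, Srsf1 at 0.99 ± 0.78, Med8 at 0.32 ± 0.70, Ywhab at -0.50 ± 0.56 and Cdc42bpa at -0.33 ± 0.87. Both comparisons use the same 5 hC4A/- libraries, so these values are not independent of those against WT.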

How the data were processed

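For each library the authors deposited a table of raw gene counts, in 3 columns by strand after 4 summary lines. STAR, edgeR and GRCm38 are named per the submitters' processing notes, with versions and annotation release not given in the sources used here. Of the columns, the unstranded count was used, since the stranded columns split the counts at 49.7% to 49.9%. Summary lines stayed out: unmapped reads were 14.8% to 29.5% of all reads, multimapping 13.2% to 28.7%, without a feature 21.8% to 42.1% and ambiguous 0.897% to 1.89%. A matrix of 24057 genes deposited by the authors equalled the raw counts in all 481140 values and served only to define a gene set. Symbols and coordinates came from GENCODE for GRCm38 (54809 of 54838 IDs). Groups came from the titles. Chi-square per degree of freedom between libraries of a group was 26.3 to 140, so none was a copy of another.

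Genes were filtered by filterByExpr, scaled by TMM and tested by edgeR 4.0.16 (R 4.3.3) with robust quasi-likelihood on the 9 libraries, with 7 residual degrees of freedom and no covariate. P-values were Benjamini-Hochberg adjusted, threshold 0.05. SE is the log2 fold change over the square root of F. C4b failed the filter and was tested by exact permutation of log2(CPM + 1) in place of the planned fit. Alternatives were other scalings, filters, tools (DESeq2 1.42.0, limma 3.58.1), library sets, a replicate block and a Y-linked covariate. On simulated data the test at this threshold missed every 2-fold change and most 4-fold changes, so genes not called may still differ. Named genes are C4b, C4a, called genes, the 8 of smallest p in each direction without overlap and with a mean of at least 20 CPM, and up to 4 of each list, of which a part is printed and some results are not reported here. Members and lists (37, 6 symbols unmatched) were chosen with earlier results of these data known. Counts come from amplified cDNA, so intervals cover counting error only, and replicates are mice per the labels' protocols.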

Additional observations from a re-analysis of the deposited data

Results flagged for a closer look

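A library was flagged where its gap to the nearest library of its group, on log2(CPM + 1), exceeded Dixon's critical value. Chance does this in about 1 of 20 groups where values are normally spread. Of 150 groups of libraries, 11 were flagged.

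In WT libraries, Snap25 had 0.622 CPM in WT 3, against 29.0 to 38.4 CPM in the other 3. Nfkbid had 53.5 CPM in WT 3, against 29.4 to 31.6 CPM. S100a8, a neutrophil marker, had 298 CPM in WT 2, against 28.5 to 33.9 CPM. Zfp873 was at 0 CPM in WT 2, against 3.11 to 3.44 CPM. Gm26873 had 8.69 CPM in WT 4, against 0.873 to 1.38 CPM. C4b had 1.24 CPM in WT 3 and Cd101 0.344 CPM in WT 1, with 0 in the other 3 WT libraries. These flags rest on 2 counts and 1 count, and any count beside libraries at 0 would be flagged.

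Among hC4A/- libraries, Klf4 had 9.71 CPM in hC4A/- 5, against 0 to 0.839 CPM in the other 4, and Ndufa7 82.6 CPM there, against 28.6 to 37.0 CPM. Rpl5 had 173 CPM in hC4A/- 3, against 339 to 410 CPM. Sec24b was at 0 CPM in hC4A/- 1, against 1.28 to 1.89 CPM.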

How the results depend on the processing

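The 1 gene called between hC4A/- and WT became 41 with DESeq2, 71 of 29290 without a filter on low counts (18 of them among the 6670 genes), and 0 in the fit over all 20 libraries, with 1 to 2 as single libraries were left out: without WT 2 Zfp383 joined Tubb5, without WT 4 Gm26873 did. Between hC4A/- and C4-/- the 0 calls became 38 with DESeq2, 1 with limma-voom and 93 without a filter, and 0 to 1 as single libraries were left out. The difference for C4b, 2.88 on the log2(CPM + 1) scale, ran from 2.67 to 3.18 without single libraries. Where edgeR tested C4b, its log2 fold change was 4.81 without a filter (adjusted p = 0.252), 4.75 over all 20 libraries (0.422) and 4.80 without the libraries of over 27000 genes (0.451), past no threshold.

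Tubb5 ran from -2.79 to -2.35. Replicate numbers do not pair the mice: same-numbered libraries had correlations of -0.021, 0.0517, -0.011 and -0.0139 of their deviations, and a replicate block gave 0 calls (Tubb5 -2.45, adjusted p = 0.0907; Tmem119 0.027; Tubb2a -0.23).

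Of 74 named genes 68 kept their direction. The 6 that turned ran, as single libraries were left out, from -0.060 to 0.51 (C1qa), -0.048 to 0.64 (C1qc), -0.25 to 0.31 (Tmem119), -0.34 to 0.93 (Tubb2a), -3.59 to 0.061 (Ngp) and -0.38 to 0.45 (Stab1), and Stab1 gave 0.049 with limma-voom. The median kept its sign in 12 of 28 lists: complement components (C1qa, C1qb and C1qc tested), complement receptors, pruning, homeostatic, immediate early, antigen presentation, actin, ribosomal, nuclear oxidative phosphorylation, mitochondrial, proteasome and neutrophil genes. The cause of these changes was not tested. Depth limits genes of few counts, as the median detected gene held 3 to 16 counts.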
